A study of Mus musculus with 4 samples.

Results

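The genes described here encode the subunits of the proteasome, its activators and inhibitor, and the chaperones that assemble it. They were taken from the count table by name, as protein-coding genes whose symbol starts with Psm, a letter from a to g and a number, without the immunoproteasome subunits Psmb8, Psmb9 and Psmb10. The rule found 48 of the 56748 genes listed, of which 21970 are protein-coding. It used no measured value. Of the 48 genes, 46 encode proteasome subunits, regulators or assembly factors, and 2 only carry a name of this form: Psmc3ip, a partner of the meiotic recombinases, and Psme3ip1, a protein that binds the activator Psme3.

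The RNA-seq libraries came from the mouse embryonic stem cell (mESC) line E14, grown without feeder cells on gelatin with serum and leukemia inhibitory factor. There were 2 libraries from wild-type cells (WT1 and WT2) and 2 libraries from Npac knockout cells (KO1 and KO2), which were made with CRISPR/Cas9 by electroporation, puromycin selection and picking of colonies. Each KO library came from 1 KO clone, so what is particular to a clone and what follows from the loss of Npac cannot be told apart. Nothing in the sources says that WT1 and WT2 were separate cultures or that the WT cells went through selection, and p-values measure only the spread between these libraries. The libraries held 15850805 to 16965120 counts.

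Npac, listed as Glyr1, was read at 259 and 178 CPM (counts scaled to a common library size by the TMM method) in WT1 and WT2 and at 47.9 and 51.3 CPM in KO1 and KO2. Its log2 fold change of KO over WT was -2.14 (SE 0.23, Benjamini-Hochberg adjusted p = 0.00174 from the quasi-likelihood test of edgeR). All 11 mESC markers were read in every library, and 1 of them, Zfp42, was down-regulated. Their summed level was 6246 to 7810 CPM in WT and 5354 to 5759 CPM in KO. Of the 6 fibroblast markers, Col3a1 and Dcn had no reads and 4 in all had at most 3 reads, while the summed level was 5.76 to 9.96 CPM in WT and 19.6 to 19.8 CPM in KO with Col1a1 up-regulated. The 5 primitive endoderm markers summed to 10.8 to 19.1 CPM in WT and 17.9 to 24.5 CPM in KO, with none called and Foxa2 at no more than 2 reads. The 3 blood and immune markers summed to 25.1 to 31.0 CPM in WT and 51.7 to 54.3 CPM in KO, with Cd74 up-regulated and Ptprc read in WT2 only. Col1a1 and Cd68 are on chromosome 11, whose median was shifted upwards in KO, as described below. With that median removed, their log2 fold changes were 0.79 and -0.011 (edgeR adjusted p = 0.132 and 0.981). Cd74 on chromosome 18 and Col1a2 on chromosome 6, the latter at no more than 18 counts, passed in that fit (edgeR adjusted p = 0.0177 and 0.0479). The part of these markers in the proteasome values was not tested. In bulk libraries, fewer cells of a type and less RNA per cell cannot be told apart.

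The proteasome degrades proteins tagged with ubiquitin. Its 20S core is a barrel of alpha and beta rings in which the beta subunits Psmb5, Psmb6 and Psmb7 hold the active sites. A 19S cap sits on the core, with a base of ATPases that unfold the substrate and a lid that removes ubiquitin, and other activators can take the place of the cap. The transcription factor Nfe2l1, with Nfe2l2 as a relative, raises proteasome genes through antioxidant response elements when proteasome activity falls. Many ubiquitous genes, proteasome genes among them, carry CCAAT boxes near their start.

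Psmb5 has a near-identical copy in the genome, and the sequences of both are shown because they bear on how its reads can be assigned. In GENCODE vM21 (GRCm38), Psmb5 lies at chr14:54614119-54618022 on the minus strand, and Gm3375, a processed pseudogene, lies at chr7:3181093-3181888 on the plus strand. Aligned to the 795 bases of the Psmb5 coding sequence, Gm3375 differed by 8 substitutions and 1 inserted base. With positions counted from the A of the Psmb5 start codon, the substitutions were G6A, G106A, C297T, C306T, T387A, C417T, T465C and C660A, with the Psmb5 base first. The inserted base follows position 262, after which the reading frame of the copy meets its first stop codon at base 376 of the copy, against 793 in Psmb5. The first 100 bases and the 60 Psmb5 bases around the insertion are given below, with the bases that differ in capitals.
Psmb5, bases 1 to 100: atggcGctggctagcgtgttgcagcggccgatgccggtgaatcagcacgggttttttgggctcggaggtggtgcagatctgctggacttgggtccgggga
Gm3375, bases 1 to 100: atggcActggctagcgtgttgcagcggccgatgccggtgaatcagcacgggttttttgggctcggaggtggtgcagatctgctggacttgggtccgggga
Psmb5, bases 233 to 292: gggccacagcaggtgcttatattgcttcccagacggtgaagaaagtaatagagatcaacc
Gm3375, bases 233 to 293: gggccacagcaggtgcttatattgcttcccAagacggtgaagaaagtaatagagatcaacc
Of the 646 stretches of 150 bases in this coding sequence, the length of 1 read, 52 (8.05%) held no difference between gene and copy.

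Promoter windows of RefSeq (GRCm38.p6, from 250 bases before to 50 bases after the start) were found for 40 of the 48 genes. Psma8, Psmb1, Psmb2, Psmb7, Psmc3, Psmd3, Psmd7 and Psmg2 had no entry. They were searched on both strands for TGACNNNGC, the core of the antioxidant response element, and for CCAAT. The first was in the windows of 6 of the 40 genes (15%), against 13.99% of the 27025 genes in the table. The second was in 15 of the 40 (37.5%), against 41.1% of all genes. On the gene's own strand alone CCAAT was in 35% of member genes and 23.7% of all genes, so the order turned. Among the 12 up-regulated members with a window, 3 held the response element core (Psmb5, Psmb6 and Psmd12) and 5 held CCAAT. Among the other 28 members the numbers were 3 and 10. A match of letters is not a binding site. Shown here are the 120 bases before the first transcript start of the up-regulated proteasome genes that held either motif in that stretch, with the motif in capitals (ATTGG is CCAAT read on the opposite strand).
Psmb5, chr14:54618023-54618142, minus strand: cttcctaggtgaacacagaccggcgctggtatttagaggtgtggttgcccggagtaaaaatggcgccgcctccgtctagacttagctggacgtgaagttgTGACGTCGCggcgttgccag
Psmb6, chr11:70525237-70525356, plus strand: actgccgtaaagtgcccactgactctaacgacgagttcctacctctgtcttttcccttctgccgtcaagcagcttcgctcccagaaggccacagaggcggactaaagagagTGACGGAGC
Psmb3, chr11:97703279-97703398, plus strand: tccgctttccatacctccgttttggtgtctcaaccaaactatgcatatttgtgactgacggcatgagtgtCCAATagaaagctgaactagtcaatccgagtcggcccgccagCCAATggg
Psma2, chr13:14613120-14613239, plus strand: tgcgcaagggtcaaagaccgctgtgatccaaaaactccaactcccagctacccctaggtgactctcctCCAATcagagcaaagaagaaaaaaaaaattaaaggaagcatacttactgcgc
Psme3, chr11:101316093-101316212, plus strand: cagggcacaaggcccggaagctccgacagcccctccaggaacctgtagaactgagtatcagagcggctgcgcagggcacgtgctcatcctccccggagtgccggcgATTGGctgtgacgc

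To see how the proteasome genes changed without Npac, both KO libraries were compared with both WT libraries. Of the 48 genes, 47 passed the filter on low counts. Psmb11, the subunit of the thymus proteasome, had 0, 2, 0 and 2 counts in WT1, WT2, KO1 and KO2 and was not tested. With thresholds of 0.05 on the adjusted p and 1.5 on the fold change, 14 of the 47 genes were up-regulated and none was down-regulated, and the same 14 and 0 passed with an unadjusted p under 0.05 and by DESeq2. The background over all 18157 genes tested was 11% up-regulated and 10.7% down-regulated. The median log2 fold change of the 47 genes was 0.25, against 0.0015 for all genes tested. It was above 0 for 39 genes and below 0 for 8.

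The lower KO library exceeded the higher WT library in 29 of the 47 genes, against 33.2% of all genes tested. For 2 genes, Psmd8 and Psmd5, the KO libraries were both lower than either WT library, against 32.5% of all genes tested, and in the other 16 the groups overlapped. The libraries of a group also differed among themselves. WT2 was above WT1 in 36 genes, with a median log2 difference of 0.16, and KO2 lay below KO1 with a median log2 difference of -0.15.

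**Figure D1:**
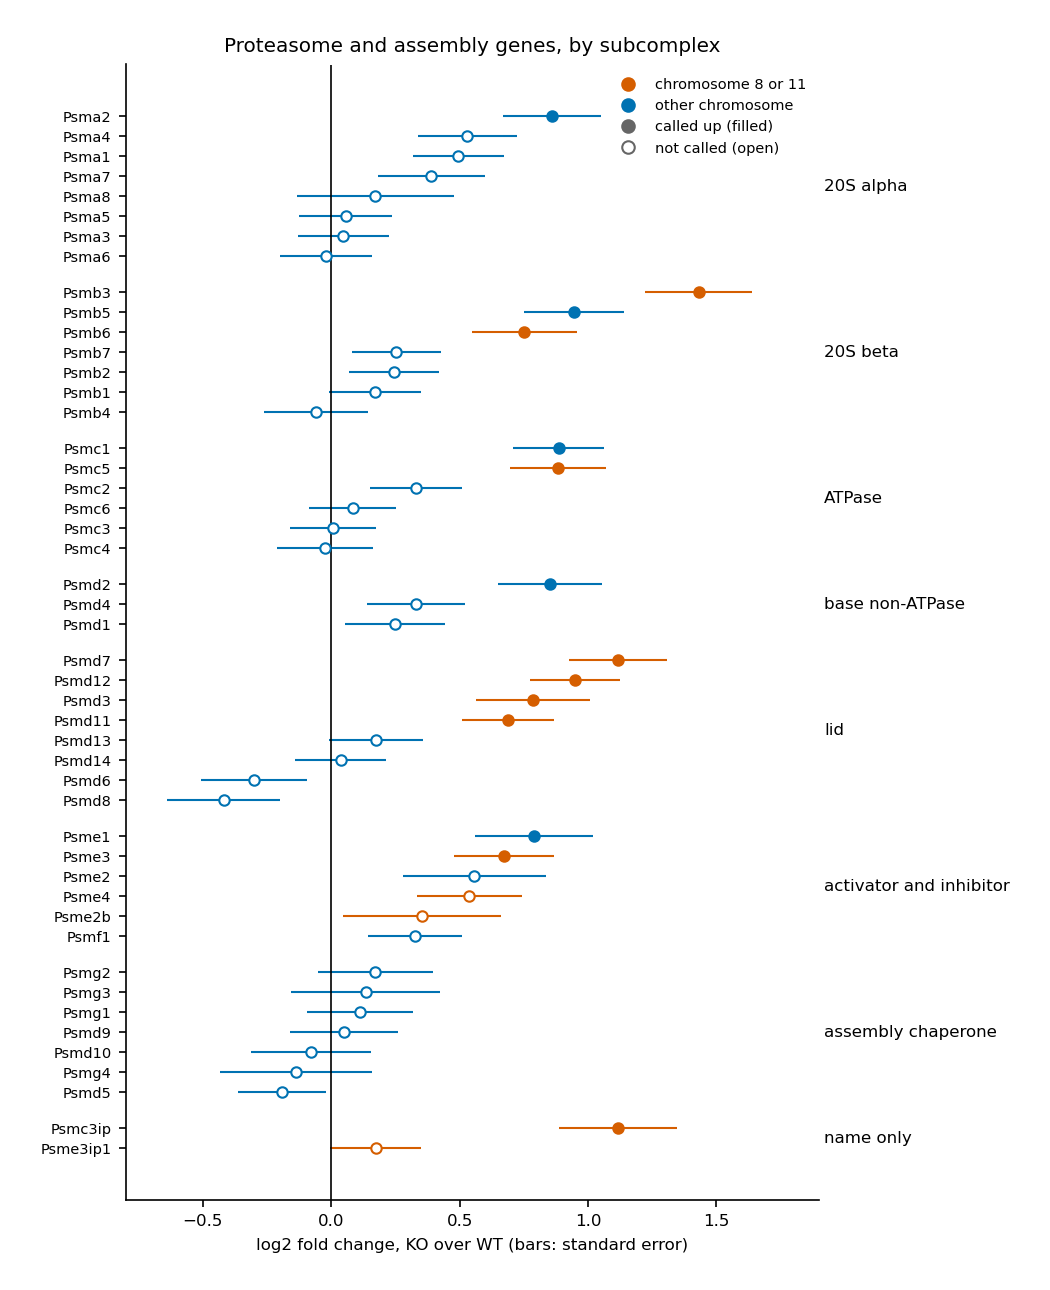
The log2 fold change of KO over WT is plotted on the x axis for each of the 47 genes tested, grouped by subcomplex, with bars for the standard error and filled points for the 14 up-regulated genes. Of the 12 genes on chromosomes 8 and 11, in orange, 9 are filled, and of the 35 on other chromosomes, in blue, 5 are filled.

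The place of the genes in the genome divided them. Genes of chromosomes 8 and 11 were shifted upwards in each KO library, with a median log2 difference from WT of 0.52 in KO1 and 0.53 in KO2 on chromosome 8, and of 0.51 in KO1 and 0.49 in KO2 on chromosome 11. On the other chromosomes the median lay between -0.20 and -0.0031. The file gives chromosome 8 or 11 for 12 members, of which 9 were up-regulated: Psmb3, Psmb6, Psmc5, Psmd3, Psmd7, Psmd11, Psmd12, Psme3 and Psmc3ip. The background on these chromosomes was 26.5% of the genes tested. Of the 35 members tested on other chromosomes, 5 were up-regulated (Psma2, Psmb5, Psmc1, Psmd2 and Psme1), against 8.61% of all genes tested there. Of these 5, Psmb5 and Psme1 lost their calls when reads of their pseudogenes were added (edgeR adjusted p = 0.579 and 0.0548). The median log2 fold change was 0.77 for the 12 members and 0.50 for all genes on chromosomes 8 and 11. It was 0.17 for the 35 members and -0.07 for all genes on the other chromosomes. Both KO libraries exceeded both WT libraries in all 12 members on chromosomes 8 and 11 and in 17 of the 35 on others. The matching share of all genes tested, 33.2%, was not split by chromosome.

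When the median of each chromosome was removed from each KO library, 7 of the 47 genes were up-regulated and none was down-regulated, against a background of 9.32% up and 9.8% down. These 7 were Psma2, Psma4, Psmb3, Psmb5, Psmc1, Psmd2 and Psme1. Pseudogene reads, which ended the calls of Psmb5 and Psme1, were not added in this fit. The median log2 fold change of the 47 genes was then 0.27. Only Psmb3 of the 12 members on chromosomes 8 and 11 passed in this fit, with a log2 fold change of 0.93 (SE 0.20, edgeR adjusted p = 0.0209). Both KO clones carry the shift of these chromosomes, so it and the loss of Npac cannot be told apart for the genes there.

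**Figure D2:**
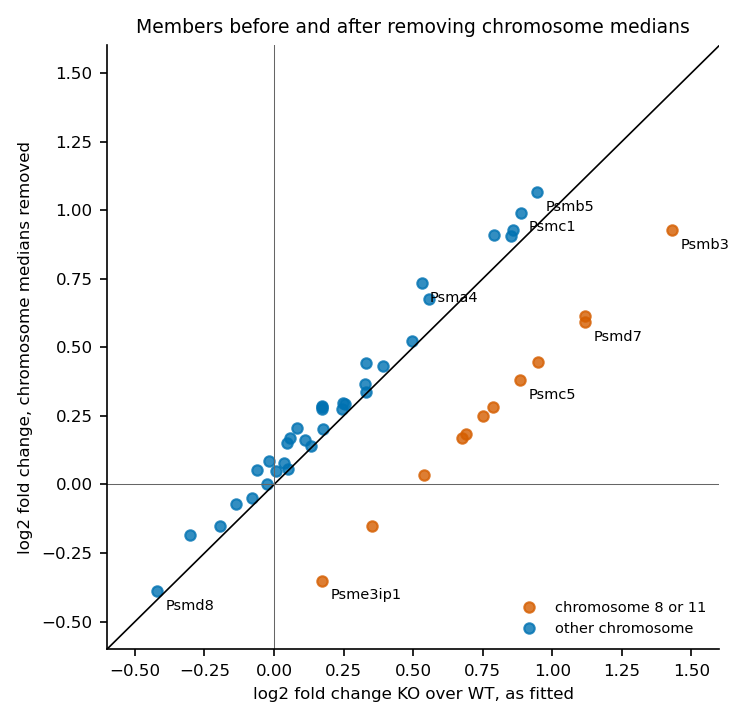
The log2 fold change of KO over WT as fitted (x axis) is plotted against the log2 fold change after the median of each chromosome was removed (y axis) for the 47 genes. The 12 genes on chromosomes 8 and 11, in orange, lie below the line of equal values, and the others, in blue, lie on or slightly above it.

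The 20S core was higher in KO cells in its sum. The 16 core genes summed to 1874 and 2212 CPM in WT1 and WT2 and to 2930 and 2622 CPM in KO1 and KO2, which is 1.36-fold. Of the 15 tested, 4 were up-regulated, against 11% of all genes tested. Of these 4, Psmb3 and Psmb6 are on chromosome 11, and 26.5% of the genes tested on chromosomes 8 and 11 were up-regulated. Psmb5 lost its call when pseudogene reads were added. Without Psmb3 and Psmb6, which are on chromosome 11, the other 14 summed to 1591 and 1837 CPM in WT and 2225 and 1985 CPM in KO, which is 1.23-fold.

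The alpha subunits form the outer rings of the core, which gate the entry of substrates. Psma2 was the only one of the 8 up-regulated, against 11% of all genes tested. It was read at 99.2 and 106 CPM in WT1 and WT2 and 207 and 165 CPM in KO1 and KO2. Its log2 fold change was 0.86 (SE 0.19, edgeR adjusted p = 0.0188). The gene AW209491 overlaps Psma2 on the same strand, and its counts came to 11.3% of those of Psma2. Psma4 was read at 139 and 176 CPM in WT and 230 and 224 CPM in KO, with a log2 fold change of 0.53 (SE 0.19, edgeR adjusted p = 0.0840). Its groups did not overlap, and it passed once the median of chromosome 9 was removed (log2 fold change 0.73, edgeR adjusted p = 0.0356). Psma1 (log2 fold change 0.50, edgeR adjusted p = 0.0839) and Psma7 (0.39, adjusted p = 0.215) also had KO libraries that both exceeded WT1 and WT2.

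The other alpha subunits had overlapping groups. Psma3 was at 121 and 137 CPM in WT and 141 and 127 CPM in KO, and Psma5 was at 101 and 113 CPM in WT and 119 and 103 CPM in KO. Psma6 had the lowest fold change of the ring, with 144 and 157 CPM in WT, 160 and 137 CPM in KO and a log2 fold change of -0.020 (SE 0.18). Psma8, the alpha subunit known from the testis, was read at 12.1 to 19.9 CPM over the 4 libraries.

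The inner rings of the core are made of beta subunits, and 3 of the 7 tested were up-regulated, against 11% of all genes. Psmb3, a beta subunit without an active site, had the highest fold change of all members. It was read at 99.7 and 132 CPM in WT1 and WT2 and at 331 and 295 CPM in KO1 and KO2, a log2 fold change of 1.43 (SE 0.21, edgeR adjusted p = 0.00495). Of its 7 matched pseudogenes, Gm4950 had 41 and 57 counts in WT and 153 and 166 counts in KO, and Gm6467 had 56 and 64 counts in WT and 145 and 136 counts in KO. In every library 5.01% to 6.11% of the reads of Psmb3 and its pseudogenes were assigned to the pseudogenes.

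Psmb5, Psmb6 and Psmb7 hold the chymotrypsin-like, caspase-like and trypsin-like sites. Psmb6 was read at 183 and 242 CPM in WT and 373 and 343 CPM in KO, with a log2 fold change of 0.75 (SE 0.20, edgeR adjusted p = 0.0370). With the median of chromosome 11 removed it was 0.25 (edgeR adjusted p = 0.417). Psmb7 was at 135 and 128 CPM in WT and 164 and 149 CPM in KO, a log2 fold change of 0.25 (SE 0.17, edgeR adjusted p = 0.324). Its groups did not overlap, but the difference did not pass the test. Nek6 overlaps Psmb7 on the opposite strand with counts equal to 30.8% of those of Psmb7. The lowest fold change of the beta subunits was that of Psmb4, at 201 and 265 CPM in WT and 235 and 212 CPM in KO, and Psmb1 was at 201 and 232 CPM in WT and 251 and 237 CPM in KO.

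Psmb5 was up-regulated in the table, but the call ended when the reads of Gm3375 were added to it. Psmb5 had 985 and 1303 counts in WT1 and WT2 and 2299 and 2079 counts in KO1 and KO2, which is 64.5 and 74.6 CPM in WT and 148 and 120 CPM in KO. Its log2 fold change was 0.95 (SE 0.19, edgeR adjusted p = 0.0147). The pseudogene moved the other way, with 1338 and 1551 counts in WT and 142 and 91 counts in KO, a log2 fold change of -3.62 (SE 0.29, edgeR adjusted p = 0.00064). The pair summed to 2323 and 2854 counts in WT and 2441 and 2170 counts in KO. The pseudogenes held 57.6% and 54.3% of the sum in WT and 5.82% and 4.19% in KO. With the reads added together, the log2 fold change of Psmb5 was -0.16 (edgeR adjusted p = 0.579). Psmb5-ps, the other matched copy, had no reads.

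**Figure D3:**
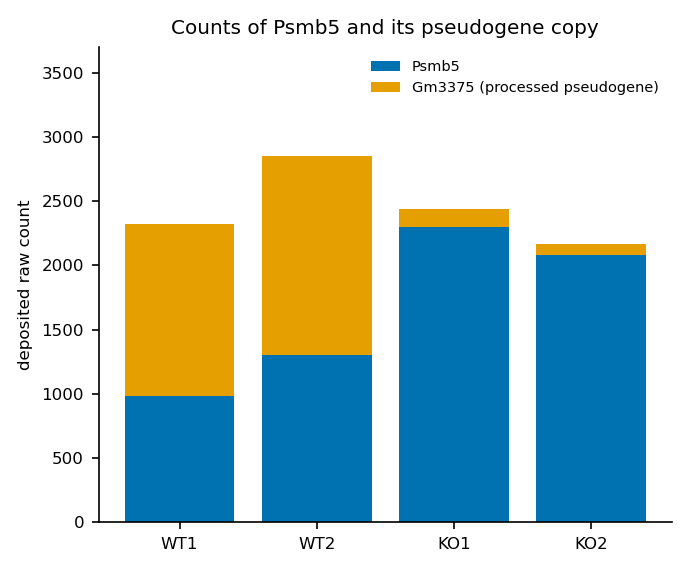
Stacked bars give the deposited raw counts of Psmb5 (blue) and Gm3375 (yellow) in each library. The blue part is larger in KO1 and KO2, while the whole bars of KO1 (2441) and KO2 (2170) lie in the range of WT1 (2323) and WT2 (2854) or below it.

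A large share of reads on a pseudogene did not always differ between the groups. Gm13835 matches a Psma3 transcript at 100% identity and had 908 and 1346 counts in WT and 1148 and 1126 counts in KO. The 3 Psma3 pseudogenes held 32.9% and 35.9% of the family's reads in WT and 34.5% and 33.9% in KO. For Psma5 the share was 10.6% to 12.3% and for Psma4 it was 5.31% to 6.52% over the 4 libraries. In all, 30 pseudogenes matched 16 of the genes, and 17 of them had reads. Adding them ended the call of Psme1 besides that of Psmb5.

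The 19S base was higher in its sum, and 3 of its 9 genes were up-regulated, against 11% of all genes tested. It summed to 1552 and 1652 CPM in WT1 and WT2 and 2317 and 2104 CPM in KO1 and KO2, which is 1.38-fold, and to 1.34-fold without Psmc5, its gene on chromosome 11. The 6 ATPases form the ring that unfolds substrates. Psmc1 was read at 120 and 131 CPM in WT and 243 and 220 CPM in KO, a log2 fold change of 0.89 (SE 0.18, edgeR adjusted p = 0.0136). Psmc5 was at 130 and 145 CPM in WT and 276 and 231 CPM in KO, a log2 fold change of 0.88 (SE 0.19, edgeR adjusted p = 0.0162), and of 0.38 (edgeR adjusted p = 0.183) with the chromosome median removed. In both genes each KO library was above each WT library, which adds no support to calls made on the same libraries. The other 4 ATPases did not pass. Psmc3 was at 169 and 168 CPM in WT and 170 and 168 CPM in KO, and Psmc4, with the lowest fold change, was at 142 and 145 CPM in WT and 156 and 126 CPM in KO. Psmc2 had a log2 fold change of 0.33 (SE 0.18) and Psmc6 one of 0.084 (SE 0.17).

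The remaining base subunits are scaffolds and a ubiquitin receptor. Psmd2, a scaffold that binds ubiquitin-like domains, was up-regulated, with 274 and 359 CPM in WT and 579 and 564 CPM in KO. Its log2 fold change was 0.85 (SE 0.20, edgeR adjusted p = 0.0235). The ubiquitin receptor Psmd4 had a log2 fold change of 0.33 (SE 0.19). Psmd1, the other scaffold, was at 249 and 201 CPM in WT and 285 and 248 CPM in KO. The KO2 level of Psmd1 lay within the WT range.

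The lid split by chromosome. Its 8 genes summed to 1212 and 1411 CPM in WT1 and WT2 and 1919 and 1787 CPM in KO1 and KO2, which is 1.41-fold. The 4 genes on chromosomes 8 and 11 were up-regulated, against 26.5% of all genes tested there. None of the 4 on other chromosomes was up-regulated, which lies near the share of 8.61% of all genes tested on those. The 4 genes on other chromosomes summed to 548 and 634 CPM in WT and 561 and 500 CPM in KO, which is 0.897-fold. With chromosome medians removed no lid gene was called, against 9.32% up and 9.8% down of all genes tested.

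Psmd7, the partner of the deubiquitinase in the lid, was at 148 and 182 CPM in WT and 373 and 341 CPM in KO, a log2 fold change of 1.12 (SE 0.19, edgeR adjusted p = 0.0086). The scaffold subunits Psmd12, Psmd3 and Psmd11 followed. Psmd12 was at 126 and 122 CPM in WT and 254 and 225 CPM in KO (log2 fold change 0.95, SE 0.18, edgeR adjusted p = 0.0109). Psmd3 was at 226 and 326 CPM in WT and 469 and 483 CPM in KO (log2 fold change 0.79, SE 0.22, edgeR adjusted p = 0.0411). Psmd11 was at 164 and 146 CPM in WT and 263 and 237 CPM in KO (log2 fold change 0.69, SE 0.18, edgeR adjusted p = 0.0324). In all 4 the groups did not overlap, which adds no support to calls made on the same libraries. With the chromosome medians removed, their log2 fold changes were 0.59 for Psmd7, 0.45 for Psmd12, 0.28 for Psmd3 and 0.19 for Psmd11, and none passed.

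On other chromosomes, Psmd14, the deubiquitinase itself, was at 101 and 104 CPM in WT and 114 and 97.0 CPM in KO, a log2 fold change of 0.036 (SE 0.18). Psmd8 had the lowest fold change of all members, at 189 and 275 CPM in WT and 174 and 173 CPM in KO (log2 fold change -0.42, SE 0.22, edgeR adjusted p = 0.204). Psmd6 had a log2 fold change of -0.30 (SE 0.21, edgeR adjusted p = 0.324) with overlapping groups. Psmd13 was at 125 and 147 CPM in WT and 163 and 144 CPM in KO. Sirt3 overlaps Psmd13 on the opposite strand with counts equal to 21.5% of those of Psmd13.

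**Figure D4:**
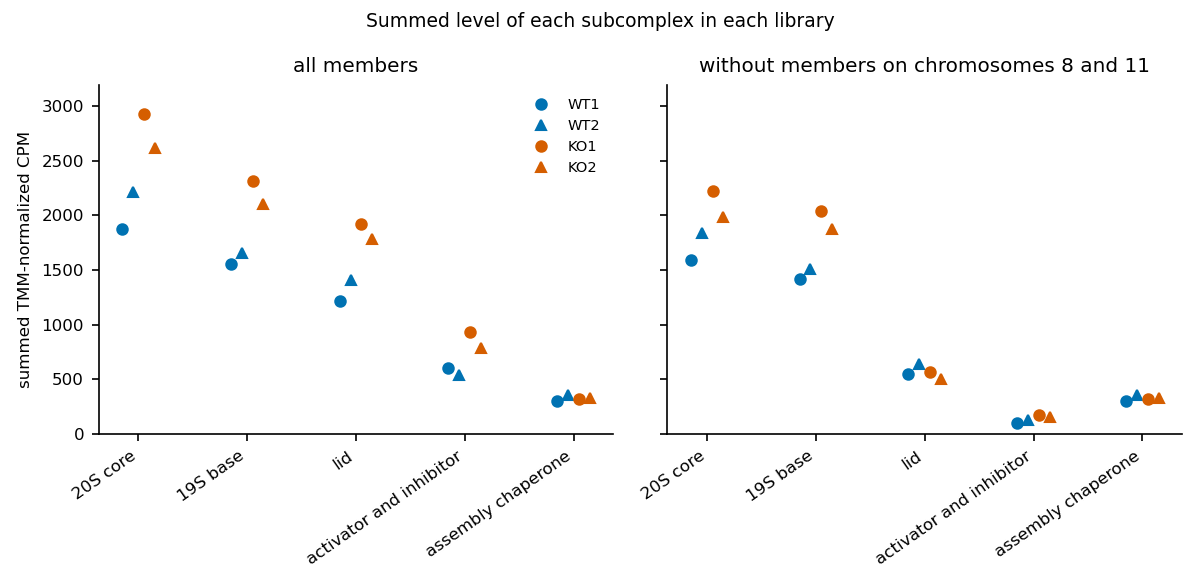
The summed TMM-normalized CPM of each subcomplex is plotted for each library, for all members (left) and without members on chromosomes 8 and 11 (right), with WT in blue and KO in orange. The KO points lie above the WT points in the 20S core and the 19S base in both panels, while the lid points overlap in the right panel, at 548 and 634 CPM in WT and 561 and 500 CPM in KO.

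In the activators and the inhibitor, the KO libraries exceeded both WT libraries in all 6 genes, against 33.2% of all genes tested. By the test 2 of the 6 were up-regulated, against 11% of all genes. The 6 genes summed to 604 and 539 CPM in WT1 and WT2 and 933 and 788 CPM in KO1 and KO2, which is 1.5-fold. Without the 3 genes on chromosome 11 it was 1.49-fold, on smaller sums of 93.5 and 121 CPM in WT and 169 and 151 CPM in KO. The median log2 fold change of the 6 genes was 0.55 as fitted. With chromosome medians removed it was 0.27, and 1 gene was called. In that fit the 3 genes on chromosome 11 had log2 fold changes of -0.15 (Psme2b), 0.17 (Psme3) and 0.034 (Psme4). Psme1 and Psme2 form the activator induced by interferon-gamma. Psme1 was at 35.5 and 52.0 CPM in WT and 81.2 and 70.2 CPM in KO, a log2 fold change of 0.79 (SE 0.23, edgeR adjusted p = 0.0468). It was called under 6 of the 10 alternatives that kept all libraries, and lost its call when pseudogene reads were added (edgeR adjusted p = 0.0548). Psme2 was at 17.4 and 25.9 CPM in WT and 36.9 and 26.9 CPM in KO (log2 fold change 0.56, SE 0.28, edgeR adjusted p = 0.184).

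Psme3, the activator of the nucleus, was at 209 and 174 CPM in WT and 330 and 280 CPM in KO, a log2 fold change of 0.67 (SE 0.19, edgeR adjusted p = 0.0444). With the median of chromosome 11 removed it was 0.17 (edgeR adjusted p = 0.566). Psme4, a large activator tied to histone degradation, had 294 and 236 CPM in WT and 422 and 347 CPM in KO (log2 fold change 0.54, SE 0.20, edgeR adjusted p = 0.0958). The value for Psme4 was 0.034 with the median of its chromosome, also 11, removed. Psme2b, a copy of Psme2 on chromosome 11, was at 8.38 and 8.41 CPM in WT and 12.2 and 9.30 CPM in KO (log2 fold change 0.35, SE 0.31), and reads of near-identical copies are uncertain. The inhibitor Psmf1 had the lowest fold change, at 40.7 and 43.1 CPM in WT and 51.3 and 53.7 CPM in KO (log2 fold change 0.33, SE 0.18, edgeR adjusted p = 0.231).

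The assembly chaperones did not share the higher sum. Their 7 genes, none on chromosomes 8 or 11, summed to 295 and 357 CPM in WT1 and WT2. In KO1 and KO2 they summed to 318 and 324 CPM, which is 0.984-fold. By edgeR 0 of 7 were called, also at an unadjusted p under 0.05 and by DESeq2. The background was 8.61% up-regulated on the other chromosomes and 10.7% down-regulated over all genes tested, so 0 of 7 lies near these shares. The median log2 fold change of the chaperones was 0.049. Leaving out each library in turn moved this median across 0, from -0.11 without WT1 to 0.24 without WT2. Psmg1 to Psmg4 build the core, and Psmd5, Psmd9 and Psmd10 the base. Psmg2 had the highest fold change, at 40.5 and 59.0 CPM in WT and 54.1 and 58.0 CPM in KO, with overlapping groups. Psmd5 had the lowest, at 124 and 126 CPM in WT and 104 and 114 CPM in KO, a log2 fold change of -0.19 (SE 0.17, edgeR adjusted p = 0.452). A test of the difference between chaperones and subunits was not made.

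Of the 2 genes that share only the name, Psmc3ip on chromosome 11 was up-regulated, at 19.3 and 26.8 CPM in WT and 47.7 and 52.5 CPM in KO (log2 fold change 1.12, SE 0.23, edgeR adjusted p = 0.0147). Mlx overlaps Psmc3ip on the opposite strand and had 293 and 285 counts in WT and 765 and 830 counts in KO. Whether strand was used in counting is not given in the sources used here, so how reads on bases shared by overlapping genes were assigned is not known. Overlaps were taken from whole gene spans, and shared exon bases were not examined. Psme3ip1 on chromosome 8 was at 62.4 and 57.2 CPM in WT and 67.0 and 67.9 CPM in KO, a log2 fold change of 0.17, and of -0.35 with the chromosome median removed. Rspry1 overlaps Psme3ip1 on the opposite strand.

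**Figure D5:**
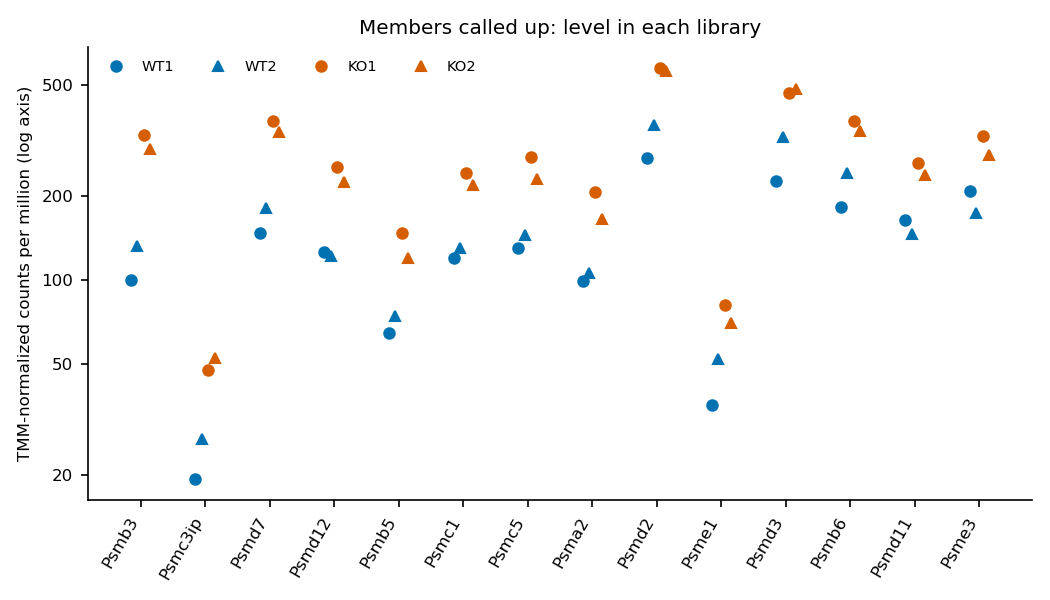
TMM-normalized CPM in each library, on a log axis, are plotted for the 14 up-regulated genes in order of fold change, with WT in blue and KO in orange, circles for libraries 1 and triangles for libraries 2. In each gene both KO points lie above both WT points, from Psmb3 (99.7 and 132 CPM in WT, 331 and 295 CPM in KO) to Psme3 (209 and 174 CPM in WT, 330 and 280 CPM in KO). The 14 genes were chosen by a test on these same libraries, so this separation adds no support.

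Which library was in the fit changed several calls. Without KO1 the calls were Psmb3, Psmd7 and Psmc3ip (3 genes), and without KO2 they were Psmb3, Psmb5, Psmd7 and Psmd12 (4 genes), with the lone KO library assumed to vary like the WT pair. Without WT1, Psmb6, Psmd3 and Psme1 lost their calls, Psme4 gained one and Psmd8 was down-regulated (log2 fold change -0.69). Without WT2, Psme3 lost its call and Psma4, Psma7 and Psme2 gained one. On FPKM with limma-trend, Psmb6, Psmd3, Psmd11, Psme1 and Psme3 were not called. Psma2, Psmb3, Psmc1 and Psmd2 were called under all 10 alternatives that kept every library. Psmb3 ranged from 1.21 to 1.65 and Psmd7 from 0.95 to 1.27 in log2 fold change when each library was left out.

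Levels were compared between genes on the FPKM scale, which divides by gene length. In WT cells the 14 constitutive core subunits, those without Psma8 and Psmb11, lay between 27.7 and 121 FPKM with a median of 57.9 FPKM. In KO cells they lay between 34.0 and 189 FPKM with a median of 89.1 FPKM. The highest WT levels were those of Psma6 (121 ± 7.07 FPKM, SD, n = 2), Psmb4 (118 ± 22.9 FPKM), Psmb6 (113 ± 22.0 FPKM), Psmb2 (102 ± 3.83 FPKM) and Psmc5 (97.9 ± 7.15 FPKM). Neighbours among these 5 overlapped in their libraries, and the next gene, Psma5 (80.4 ± 6.70 FPKM), did not overlap with Psmc5. The ATPases had a WT median of 64.2 FPKM and the lid one of 44.5 FPKM, while the activators and the inhibitor had 15.9 FPKM and the chaperones 17.1 FPKM. Apart from Psmb11, the lowest WT levels were those of Psmg3 (3.34 ± 0.33 FPKM) and Psmd9 (3.54 ± 0.24 FPKM). The rank of a gene depends on the length the authors used for it.

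Other genes around the proteasome were read from lists fixed by function. The background for each list was 11% up-regulated and 10.7% down-regulated over all genes tested. Of 15 associated factors tested, such as the assembly factor Pomp and the ubiquitin receptor Adrm1, 0 were up-regulated (by DESeq2 also 0) and 1, the shuttle factor Ubqln2, was down-regulated (82.4 and 76.6 CPM in WT, 48.0 and 45.5 CPM in KO, log2 fold change -0.77, edgeR adjusted p = 0.0223). Their median log2 fold change was -0.12. Pomp was at 59.2 and 77.2 CPM in WT and 118 and 96.1 CPM in KO (log2 fold change 0.65, edgeR adjusted p = 0.0622). Paaf1 was not analysed here.

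The 3 immunoproteasome subunits replace the active beta subunits in cells that present antigen, and 2 were up-regulated at low levels. Psmb8 had 0 and 5 counts in WT and 24 and 23 counts in KO (log2 fold change 3.19, SE 0.91, edgeR adjusted p = 0.0432). Psmb10, on chromosome 8, was at 4.65 and 9.10 CPM in WT and 23.4 and 16.2 CPM in KO (log2 fold change 1.52, SE 0.39, edgeR adjusted p = 0.0295). Psmb9 was at 4.13 and 11.7 CPM in WT and 7.98 and 10.1 CPM in KO, with overlapping groups. By DESeq2 or with chromosome medians removed, 1 of the 3 was called.

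Of 11 genes listed around Nfe2l1, which include its relative Nfe2l2, Keap1 and small Maf proteins, 2 rose and 3 fell past the thresholds. The shares of all genes tested were 11% and 10.7%. Nfe2l1 itself, on chromosome 11, was at 521 and 371 CPM in WT and 377 and 419 CPM in KO (log2 fold change -0.16, edgeR adjusted p = 0.621). With the median of chromosome 11 removed, its log2 fold change was -0.67 (edgeR adjusted p = 0.0708). Vcp, the ATPase that extracts Nfe2l1 from the endoplasmic reticulum, was at 268 and 307 CPM in WT and 599 and 526 CPM in KO (log2 fold change 0.97, edgeR adjusted p = 0.0126). Nploc4, a cofactor of Vcp on chromosome 11, had a log2 fold change of 0.63 (edgeR adjusted p = 0.0417). Ngly1, the glycosidase that processes Nfe2l1, was at 20.4 and 18.6 CPM in WT and 7.14 and 7.63 CPM in KO (log2 fold change -1.40, edgeR adjusted p = 0.0117). Nfe2l2 (log2 fold change -0.92, edgeR adjusted p = 0.0282) and the small Maf protein Maff (-1.21, adjusted p = 0.0326) were down-regulated too.

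The COP9 signalosome and eIF3 are built with the same kinds of domains as the lid. Of the 9 COP9 signalosome genes, 1 was up-regulated, which is near the 11% of all genes tested. It was Gps1 on chromosome 11 (log2 fold change 1.07, edgeR adjusted p = 0.0101). The median log2 fold change of the 9 genes was 0.25. Of the 14 eIF3 genes, Eif3b, Eif3j1 and Eif3l were up-regulated and Eif3h and Eif3j2 were down-regulated, with a median of 0.35. Eif3j1 (50.2 and 42.6 CPM in WT, 111 and 122 CPM in KO) and Eif3j2 (52.4 and 56.2 CPM in WT, 4.18 and 2.60 CPM in KO) are near-identical copies and their assignment is uncertain.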

How the data were processed

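RNA was extracted from WT and Npac KO E14 cells, and the authors sequenced 150-base read pairs. Per the labels' processing notes, reads were mapped with HISAT2 2.0.5 to mm10 and counted with featureCounts 1.5.0-p3. The strand setting is not given in the sources used here. The authors deposited raw counts per gene, not normalized, and FPKM values, which the tables show to be counts per gene length and per library size, the latter set by size factors. Of the 48 members, 0 have the gene start that GENCODE vM21 (GRCm38) gives, so the build of the files is unsettled and their coordinates are not printed, except for chromosomes. Sequences come from RefSeq and GENCODE.

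The analysis ran in R 4.3.3, where edgeR 4.0.16 fitted the counts (TMM factors, filterByExpr, quasi-likelihood test, group as the only term). Benjamini-Hochberg adjustment ran over all 18157 genes, and calls needed an adjusted p below 0.05 with a 1.5-fold difference, as in the study's methods. The fit was tested on simulated data. Replicates differed by more than counting noise (chi-square per gene 53.8 for WT and 16.4 for KO). Pseudogenes were matched by blastn 2.17.0, requiring 90% identity and 60% coverage. Psmb5 and Gm3375 were aligned with Biopython 1.88. Alternatives were DESeq2 1.42.0, other normalizations and filters, a replicate block, limma-trend 3.58.1 on log2(FPKM + 0.1), protein-coding genes only, removal of chromosome medians, added pseudogene reads and leaving out each library. The members and lists were chosen with earlier results of these data known. Any member could be named. Values in each library are given for called members, Psmb5, Psmb6 and Psmb7, and the highest and lowest fold change of each subcomplex. They are also given for members with a near-identical copy or a processed pseudogene. The fold change with its SE and adjusted p is given for called members and Psmb7, and for some of the others. Called genes of the lists are named. A list of ubiquitin genes is not reported here.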

Additional observations from a re-analysis of the deposited data

How the results depend on the processing

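DESeq2, RLE normalization, both other count filters and the replicate block left the direction and the call of all 47 genes as they were. The labels number the libraries of both genotypes, but with 2 pairs and a correlation of 0.31 between the replicate differences of WT and KO the numbers are only shared. The replicate block gave 14 up-regulated members. FPKM with limma-trend gave 9 up-regulated members, removal of chromosome medians 7 and a fold over 2 gave 3. Leaving out 1 library gave 3 to 16 up-regulated and 0 to 1 down-regulated members, with medians of 0.18 to 0.36. Without members on chromosomes 8 and 11, the log2 ratio of the summed levels was 0.27 for all members, 0.30 for the 20S core and -0.16 for the lid, which reversed. By DESeq2, 3 associated factors were down-regulated and 1 immunoproteasome gene was up-regulated. With chromosome medians removed, 1 immunoproteasome gene, 1 of the genes listed around Nfe2l1 and 0 COP9 signalosome genes were up-regulated. Of the eIF3 genes, 4 were up-regulated and 1 was down-regulated in that fit.

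Directions reversed for Psmb5 with pseudogene reads added (-0.16), for Psma6 (0.011) and Psmc4 (0.0076) with upper-quartile normalization and for Psmc3 (-0.025) with protein-coding genes only. With chromosome medians removed they reversed for Psma6 (0.086), Psmb4 (0.052), Psmc4 (0.0027), Psme2b (-0.15) and Psme3ip1 (-0.35). When libraries were left out, uncalled members crossed 0: Psma3 (-0.067 to 0.14), Psma5 (-0.060 to 0.17), Psma6 (-0.14 to 0.10), Psma8 (-0.13 to 0.51), Psmb4 (-0.27 to 0.15), Psmc3 (-0.016 to 0.028), Psmc4 (-0.19 to 0.13), Psmd14 (-0.091 to 0.16), Psmg1 (-0.11 to 0.33), Psmg2 (-0.10 to 0.46), Psmg4 (-0.51 to 0.31), Psmd9 (-0.048 to 0.12) and Psmd10 (-0.27 to 0.11). The cause of these changes was not tested. On the gene's own strand alone, 7.5% of member promoters held the response element core, against 7.29% of all genes, and 35% held CCAAT, against 23.7% of all genes, so for CCAAT the order of members and all genes turned. Psmb11, with at most 2 counts, could not be tested at this depth.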
